A study of Rattus norvegicus with 10 samples.

Results

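Molecular motor genes were examined across the prefrontal cortex of 10 rats. The members were the 82 genes whose single annotated symbol is Kif followed by a digit, Myo followed by a digit, or begins with Dync, Dynl, Dctn, Klc or Myh, out of 14217 genes with a single symbol. Each gene was represented by the probe set of its own with the highest mean over the 10 arrays. The rule used symbols and mean levels only, with no behavioural score. They comprised 52 microtubule motor genes, of which 31 were kinesins, 16 dyneins and 5 dynactin subunits, and 30 actin motor genes, of which 18 were unconventional myosins and 12 myosin heavy chains. Kinesin light chains were counted with the kinesins, and light chains, intermediate chains and dynactin subunits were counted as microtubule motors although they do not themselves walk.

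The animals were 10 untreated male rats of the inbred Lewis strain that had undergone behavioural testing. They form a single group, with 1 array and 1 piece of prefrontal cortex per rat, and no age is given. The labels give every rat a score for startle, locomotion, sugar feeding and prepulse inhibition (the weakening of a startle by a softer preceding sound) and a plus maze score to 7 of them, all without a unit. The question, from the series title, was which mRNA levels go with behaviour between animals of an inbred strain.

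Motor proteins turn the energy of ATP into movement along the cytoskeleton. Most kinesins walk toward the plus ends of microtubules and carry vesicles, mitochondria and RNA granules out along axons and dendrites, cytoplasmic dynein with its cofactor dynactin carries cargo toward the minus ends, and myosins work on actin, in cell bodies, growth cones, dendritic spines and the walls of blood vessels. Neurons depend on this traffic because their processes are long, and glia use it to build their own processes. Several other kinesins act mainly in cell division, and most myosin heavy chains are the contractile proteins of muscle.

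Promoters of 6 motor genes are shown. The results below describe 4 of them, Kif5b, Kif3a, Myo6 and Myo10, of which only Myo6 was called in the main fits. The other pair, Myh10 and Myh4, contrasts a nonmuscle heavy chain that was measured above the filter with a muscle heavy chain that was not. Each is the 250 bases before the annotated start, on the plus strand, from RefSeq on the GRCr8 assembly. They lie at chr17:56185136-56185385 for Kif5b, chr10:38226520-38226769 for Kif3a, chr8:89967147-89967396 for Myo6, chr2:77831282-77831531 for Myo10, chr10:53893014-53893263 for Myh10 and chr10:52421898-52422147 for Myh4. Capitals mark matches on either strand to 5 motifs: the GC box GGGCGG, the CCAAT box CCAAT, the Sox core ACAAAG, the E-box CACGTG and the TATA box TATAAA. Matches that overlap run together in 1 stretch of capitals.
Kif5b: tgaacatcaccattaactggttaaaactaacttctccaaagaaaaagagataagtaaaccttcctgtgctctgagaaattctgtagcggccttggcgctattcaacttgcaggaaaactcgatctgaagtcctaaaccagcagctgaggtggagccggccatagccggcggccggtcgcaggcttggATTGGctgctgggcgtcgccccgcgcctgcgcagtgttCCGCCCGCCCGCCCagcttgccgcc
Kif3a: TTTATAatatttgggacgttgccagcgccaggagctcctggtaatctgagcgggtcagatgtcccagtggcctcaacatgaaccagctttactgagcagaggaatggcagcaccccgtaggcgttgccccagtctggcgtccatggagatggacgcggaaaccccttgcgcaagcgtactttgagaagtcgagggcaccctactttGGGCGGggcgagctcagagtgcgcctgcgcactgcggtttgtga
Myo6: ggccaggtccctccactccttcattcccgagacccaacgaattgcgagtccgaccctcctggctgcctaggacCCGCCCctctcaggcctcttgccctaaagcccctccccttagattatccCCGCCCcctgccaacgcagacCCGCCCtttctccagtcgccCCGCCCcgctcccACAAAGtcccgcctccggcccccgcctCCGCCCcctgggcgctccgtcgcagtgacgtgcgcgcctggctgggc
Myo10: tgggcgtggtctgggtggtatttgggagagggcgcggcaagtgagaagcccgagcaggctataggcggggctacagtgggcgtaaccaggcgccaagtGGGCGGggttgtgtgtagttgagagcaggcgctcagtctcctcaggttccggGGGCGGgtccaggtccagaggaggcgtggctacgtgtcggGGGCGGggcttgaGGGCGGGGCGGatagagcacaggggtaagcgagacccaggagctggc
Myh10: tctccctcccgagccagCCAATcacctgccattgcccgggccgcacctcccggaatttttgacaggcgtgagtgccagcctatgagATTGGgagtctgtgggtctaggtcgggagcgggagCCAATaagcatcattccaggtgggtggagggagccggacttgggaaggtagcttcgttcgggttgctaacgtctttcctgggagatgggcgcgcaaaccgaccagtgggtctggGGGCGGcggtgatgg
Myh4: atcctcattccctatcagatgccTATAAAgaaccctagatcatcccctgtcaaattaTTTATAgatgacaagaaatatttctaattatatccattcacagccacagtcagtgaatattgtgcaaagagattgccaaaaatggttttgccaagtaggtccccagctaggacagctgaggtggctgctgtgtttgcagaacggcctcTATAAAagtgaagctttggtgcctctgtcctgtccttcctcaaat
Myo6 and Myo10 each had 5 GC box matches, Kif5b had 3, and Kif3a and Myh10 had 1 each. Myh4 had 0 GC box matches, 3 TATA box matches and 1 CpG in its window, against 16 CpG in that of Myh10. A match is a description of the letters and not evidence of binding.

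Promoter windows were found for 69 of the 82 motor genes, and Myo1d was not among them. The GC box was present in 27 of 44 microtubule motor promoters (61.36%) and in 13 of 25 actin motor promoters (52%), beside 40.31% of 18999 protein-coding promoters. The CCAAT box was present in 40.91% of microtubule and 32% of actin motor promoters, beside 35.48% of all. The median number of CpG was 18 in microtubule motor promoters, 7 in actin motor promoters and 9 in all. Among the actin motors, the 13 promoters of genes above the filter had a median of 17 CpG and the 12 of genes below it a median of 4, whereas microtubule motors had 17 and 20. The TATA box was present in 3 of the 4 promoters of heavy chains below the filter, in 1 of the 5 above it and in 12.35% of all promoters. The median number of CpG in these heavy chain promoters was 4 below the filter and 6 above it.

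A probe set was tested when its mean lay in the upper 50% of all probe sets, which put the filter at a log2 value of 3.99. By this rule 49 of the 82 motor genes were kept, or 59.8%, beside 59.7% of all genes with a single symbol. The families differed: 15 of 16 dyneins and 5 of 5 dynactin subunits were kept, but only 13 of 31 kinesins. Of the actin motors, 9 of 18 unconventional myosins and 7 of 12 heavy chains were kept. Just inside the filter were Dynlrb2, a dynein light chain, with a mean of 4.08, and Myh8, the perinatal muscle heavy chain, with 4.11. Just outside it were Kif16b, an endosomal kinesin, with 3.91, and Myh4, a fast muscle heavy chain, with 3.88.

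Kinesins that act in mitosis were among those below the filter: Kif11, which pushes spindle poles apart, averaged 2.15, and Kif14, Kif15, Kif18a, Kif18b, Kif20a, Kif20b, Kif22, Kif23 and Kif2c averaged 2.03 to 3.40. Of 10 markers of dividing cells, 0 were above the filter. Most of the kept kinesins act in axonal and dendritic transport. They were the conventional heavy chains Kif5a, Kif5b and Kif5c, the light chains Klc1 and Klc2, and the vesicle carriers Kif1a and Kif1c. With them were the subunits Kif3a, Kif3b and Kif3c of the kinesin-2 motor. Kif2a, which shortens microtubule ends, Kif21a, which restrains microtubule growth, and Kif26b, which does not hydrolyse ATP, completed the 13. The filter thus did not divide mitotic from other kinesins: Kif6, Kif7, Kif12, Kif13a, Kif16b, Klc3 and Klc4 were also below it, averaging 2.34 to 3.91. For Kif1b the chosen probe set averaged 1.98, and a probe set with several symbols that names Kif1b was not used.

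All 9 neuronal markers on the array were above the filter, as were 9 of 9 astrocyte markers, 14 of 15 myelin markers and 6 of 12 microglial markers. Of 9 skeletal muscle markers on the array 3 were above it: Acta1, Tnnc2 and Pvalb, the last of which is also a marker of cortical interneurons. Muscle creatine kinase Ckm averaged 1.99 and Myh2, Myh3 and Myh4 averaged 3.41, 3.73 and 3.88. Myh1, a fast muscle heavy chain by its symbol, nevertheless had 5 probe sets, all above the filter, with means of 12.31, 12.77, 12.79, 13.87 and 14.99. Which transcript these Myh1 probe sets bind was not tested.

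Differences between rats were small for most motor genes. The median SD over the 10 rats was 0.105 log2 for the 33 kept microtubule motors and 0.142 for the 16 kept actin motors, beside 0.135 for all 15521 tested probe sets and 0.124 for genes with a single symbol. Median SDs by family were 0.113 for kinesins, 0.107 for dyneins, 0.0975 for dynactin, 0.156 for unconventional myosins and 0.0876 for heavy chains. On the chosen probe sets, only Myh11 spanned more than 1 log2 unit between its lowest and highest rat, 1 of 49 motor genes (2.04%). Such a span was seen for 4.36% of genes with a single symbol above the filter and for 9.29% of all tested probe sets. Further motor probe sets also spanned more than 1 log2 unit: 7.42 to 9.19 for Kif5c and 7.17 to 8.25 for Kif3c. So did probe sets of Myo18a (7.08 to 8.16) and Myo6 (6.29 to 7.36). The order of the classes depended on the filter: over all 82 genes the medians were 0.0971 for microtubule and 0.0637 for actin motors.

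**Figure D1:**
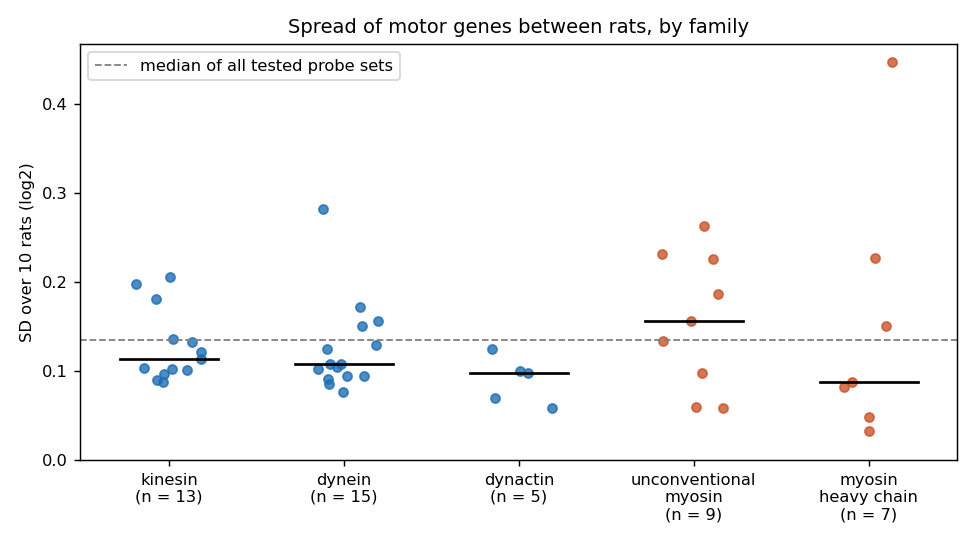
SD over 10 rats (log2) of each motor gene above the filter, by family; points are genes, blue for microtubule and orange for actin motors, and black bars are family medians. Most points lie near or below the dashed median of all tested probe sets at 0.135, and Myh11 stands highest at 0.447.

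On the chosen probe sets of the microtubule motors, Dync2h1, the heavy chain of the dynein of intraflagellar transport, varied most. It ranged from 4.69 through a median of 5.19 to 5.62 log2, a 1.90-fold span (SD 0.282). Rat 2 was highest and rat 10 lowest. Its partner subunits Dync2li1 and Dync2i1 had SDs of 0.151 and 0.124, with rat 10 the highest for Dync2li1 and rat 6 for Dync2i1, and Dynlt2b, a light chain of the same motor, had an SD of 0.172.

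Kif1a, which carries synaptic vesicle precursors, ranged from 10.31 through 10.49 to 10.90 log2 (SD 0.206). Rats 1, 9 and 2 were highest and rat 10 was lowest. On the other Kif1a probe sets rat 7 was lowest, at 8.89 and 6.40. Kif5b, the conventional kinesin heavy chain made in most tissues, ranged from 11.11 through 11.52 to 11.77 (SD 0.198). On this chosen probe set rat 3 was lowest and rat 7 was highest. A second Kif5b probe set was lowest in rat 7, at 8.06, and highest in rat 4, at 8.64. The relatives Kif5a and Kif5c, which are mainly neuronal, had SDs of 0.136 and 0.101 and other extreme rats on their chosen probe sets. Further Kif5a probe sets had SDs of 0.226 and 0.260 and a second Kif5c probe set had 0.501, all above that of Kif5b. Kif2a ranged from 9.63 through 9.94 to 10.17 (SD 0.181), with rat 7 lowest.

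The core of dynein 1 and dynactin varied less. SDs were 0.0941 for the heavy chain Dync1h1, 0.107 and 0.108 for the intermediate chains Dync1i1 and Dync1i2, and 0.103 and 0.105 for the light intermediate chains Dync1li1 and Dync1li2. The light chains Dynll2, Dynlrb1, Dynlt1 and Dynlt3 had SDs of 0.0761 to 0.130. In dynactin, the microtubule-binding Dctn1 had an SD of 0.0698 and the shoulder subunit Dctn2 one of 0.0581. The pointed-end subunits Dctn4, Dctn5 and Dctn6 had SDs of 0.0975 to 0.125.

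Rat 2 was the highest rat for 15 of the 33 microtubule motors (45.45%), including Dync1h1, Dync1i1, Dync1i2, Dync1li2, Klc1 and Kif21a, and for 3 of the 16 actin motors. It was also the highest rat for 20.55% of all tested probe sets. The mean of the centred microtubule motor values was 0.093 log2 in rat 2 and between -0.050 and 0.034 in the other rats. The array of rat 2 had the highest spike-in control level, 12.75, against 11.89 to 12.67 in the others, and its part in the rat's values was not tested. Rat 3 was the lowest rat for 9 microtubule and 5 actin motors, 28.57% of the 49, beside 23.82% of all tested probe sets. Without rat 2 the median SD of the microtubule motors was 0.0959.

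On the chosen probe sets, Myh11, the smooth muscle heavy chain of vessel walls, had the widest spread of all motor genes. It ranged from 4.70 through 5.10 to 6.21 log2 (SD 0.447, a 2.85-fold span). Rat 3 was highest, rats 8 and 5 followed at 5.68 and 5.60, and rat 6 was lowest. Myo6, the myosin that walks toward the minus ends of actin, ranged from 6.62 through 7.01 to 7.36 (SD 0.263). Rats 2 and 3 were lowest and rat 7 was highest. A second Myo6 probe set was lowest in rat 9 and highest in rat 7. Myo1d, a single-headed class I myosin that links membranes to actin, ranged from 4.39 through 4.82 to 5.20 (SD 0.232), with rat 3 lowest and rat 6 highest. Myo10, which drives filopodia, ranged from 6.20 through 6.44 to 6.96 (SD 0.226), with rat 1 highest and rat 6 lowest. Its second probe set was highest in rat 5 and lowest in rat 7. Myh1 ranged from 14.49 through 15.06 to 15.32 (SD 0.228), and rat 3 was lowest on all 5 of its probe sets.

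The other actin motors had SDs of 0.0321 to 0.186. The nonmuscle heavy chains Myh9, Myh10 and Myh14, which build contractile actin bundles in ordinary cells, had SDs of 0.0816, 0.0876 and 0.0321, and Myh14 had the smallest SD of the 49 motor genes. The class I myosins Myo1c and Myo1e had SDs of 0.0588 and 0.0595. Myo5a, which carries endoplasmic reticulum into the dendritic spines of Purkinje cells, and Myo5b, which moves recycling endosomes, had SDs of 0.156 and 0.134. Myo9b and Myo18a had SDs of 0.186 and 0.0983, and Myh8, with a mean near the filter, one of 0.150. Of these, Myo9b, Myo5a and Myh8 lay above the median of all tested probe sets.

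**Figure D2:**
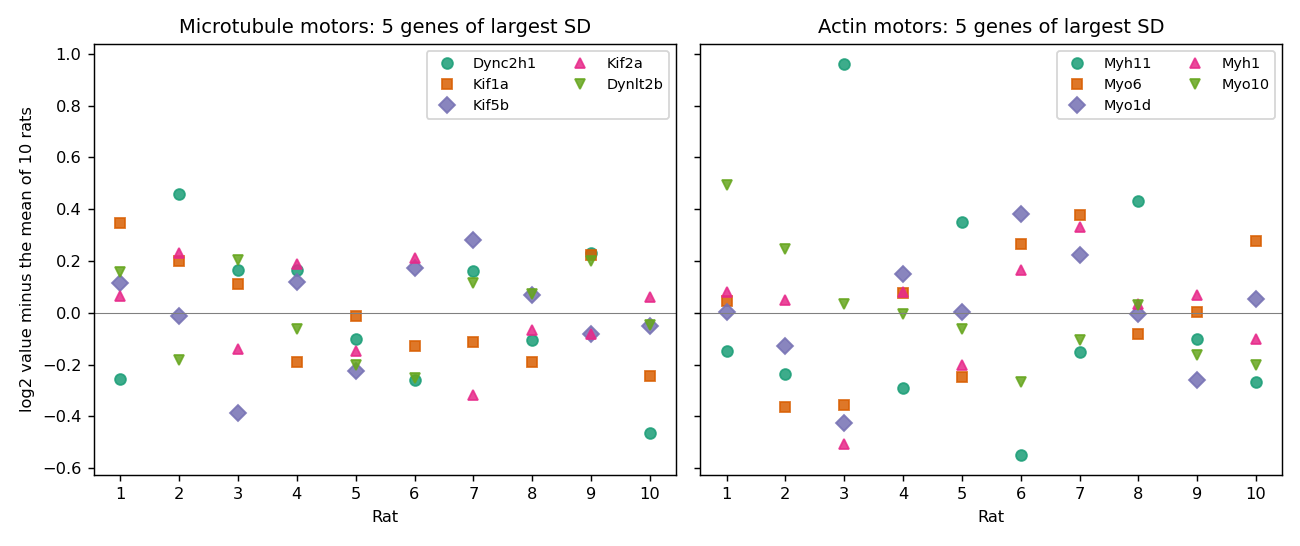
Log2 value minus the gene's mean over 10 rats, for the 5 microtubule (left) and 5 actin (right) motor genes of largest SD; each symbol is 1 rat's value and rats have no order. Rat 3 stands high for Myh11 and low for Kif5b, Myh1, Myo1d and Myo6, and rat 2 stands high for Dync2h1.

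Each behaviour was tested with a linear model across all 15521 tested probe sets (limma, Benjamini-Hochberg adjustment, threshold 0.05), and slopes are given in log2 per SD of the score with their SE. No motor gene passed for any of the 5 scores, and 0% of all probe sets were called for each of them. At an unadjusted p under 0.05, startle had 0 microtubule and 1 actin motor beside 5.59% of all probe sets, locomotion had 1 and 3 beside 2.93%, and sugar feeding had 1 and 1 beside 2.13%. Prepulse inhibition had 1 and 1 beside 7.41%, and the plus maze score had 1 and 0 beside 6.95%. These slopes rest on 10 arrays, and on 7 for the plus maze score, and what limits their precision was not tested.

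Myo10 had the smallest unadjusted p of the motor genes for startle. Rats 1 and 2, with the lowest scores of 394 and 363, had the highest Myo10 values of 6.96 and 6.71, while rats 7 and 9, with the highest scores of 943 and 927, had 6.36 and 6.31. The slope was -0.19 ± 0.04 (SE, n = 10 rats, limma adjusted p = 0.808). On the same probe set Myo10 had slopes of 0.15 ± 0.06 with locomotion and -0.14 ± 0.06 with prepulse inhibition (limma adjusted p = 1.00 and 0.662). Without rat 1 these 3 slopes were -0.13, 0.074 and -0.050. A second Myo10 probe set had slopes of -0.07 with startle, 0.02 with locomotion and 0.06 with prepulse inhibition, the last of the opposite sign.

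The other motors named for startle were Kif2a at -0.10 ± 0.05 and Kif3a at -0.06 ± 0.03, and in the positive direction Dynlt5 at 0.05 ± 0.03, Myo6 at 0.13 ± 0.07 and Myh14 at 0.03 ± 0.02 (limma adjusted p = 0.808 for each). Leaving out 1 rat moved several of these: Kif2a was at -0.065 without rat 7, Dynlt5 at 0.026 without rat 9, Myo6 at 0.073 without rat 2 and Myh14 at 0.017 without rat 1. A second Myo6 probe set had a slope of -0.07 ± 0.10 with startle, the opposite sign.

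For locomotion, Myo5b had the smallest unadjusted p. Rats 4 and 1, with the highest scores of 17987 and 17045, had the highest Myo5b values of 9.24 and 9.11. Rats 10, 8 and 9, with the lowest scores of 9420, 10278 and 10284, had 9.01, 8.91 and 8.82. The slope was 0.11 ± 0.03 (limma adjusted p = 1.00). Myo9b had a slope of 0.11 ± 0.05, and the negative slopes named were Dync2li1 at -0.09 ± 0.04, Dync1li1 at -0.04 ± 0.03 and Myh14 at -0.02 ± 0.02. Without rat 4 the slope of Dync2li1 was -0.025, and without rat 1 those of Myo9b and Myh14 were 0.076 and -0.0079. Myo5b was also first for sugar feeding, at 0.09 ± 0.04, where Dynlt1 had 0.08 ± 0.04, Kif1c 0.06 ± 0.04, Dynlt5 -0.04 ± 0.03, Kif3c -0.03 ± 0.03 and Myo1c -0.03 ± 0.02. Slopes on sugar feeding were 0.020 for Kif1c without rat 5 and -0.012 for Kif3c without rat 7, and without rat 9 they were -0.027 for Dynlt5 and -0.015 for Myo1c.

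For prepulse inhibition, Kif1a had a slope of -0.12 ± 0.05 (limma adjusted p = 0.671) and Dync1i2 one of -0.06 ± 0.03. Kif1a was 10.90, 10.75 and 10.66 in rats 1, 2 and 3, whose scores of 6.80, 10.7 and 18.4 were the lowest, and 10.36 in both rats 4 and 8, whose scores of 42.5 and 40.2 were the highest. Rat 9 had the second highest Kif1a value, 10.78, at a score of 37.4. Without rat 1 the slope of Kif1a was -0.068, and without rat 2 that of Dync1i2 was -0.028. The other Kif1a probe sets had slopes of -0.20 and 0.03. Positive slopes were 0.04 for Dynlt5, 0.04 for Dynlrb2 and 0.05 for Myh8. They were 0.026, 0.023 and 0.028 when rat 2, rat 2 and rat 5 were left out. Dynlrb2 and Myh8 lay near the filter, with means of 4.08 and 4.11. For the plus maze score, over 7 rats, Dynlt3 had -0.07 ± 0.03, Kif1c -0.09 ± 0.04 and Myh1 -0.11 ± 0.05, while Kif3b had 0.04, Dynlt5 0.04 and Myh8 0.09. Rat 5 had a plus maze score of 60.3, the next highest was 20.2, and without rat 5 the slopes shrank to -0.023 for Dynlt3, -0.052 for Kif1c, -0.019 for Myh1, 0.013 for Kif3b, 0.019 for Dynlt5 and 0.0014 for Myh8.

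By class, slopes on prepulse inhibition were positive for 5 of 33 microtubule motors and 9 of 16 actin motors, beside 41.3% of all probe sets. Median slopes were -0.026 for microtubule motors and 0.010 for actin motors, beside -0.010 for all. After quantile normalisation the positive slopes were 15 of 33 and 9 of 16 beside 57.1%, and with arrays centred on their medians 10 of 33 and 9 of 16 beside 53.1%. The count for microtubule motors thus moved with the scaling of the arrays, as did that for all probe sets.

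On startle, 11 of 33 microtubule and 9 of 16 actin motors had positive slopes beside 37.7% of all probe sets, and after quantile normalisation 20 of 33 and 10 of 16 beside 56.6%. On locomotion the counts were 18 and 10 beside 65.4%, and after quantile normalisation 13 and 9 beside 46.0%. Centring on medians left 13 and 6 beside 43.6%. On sugar feeding they were 21 and 8 beside 58.4%, and after quantile normalisation 14 and 7 beside 47.4%. On the plus maze score they were 11 and 4 beside 39.2%, and with arrays centred on their medians 14 and 10 beside 53.9%. Whether the microtubule and actin motors differ was not tested, since the genes of a class are not replicates.

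**Figure D3:**
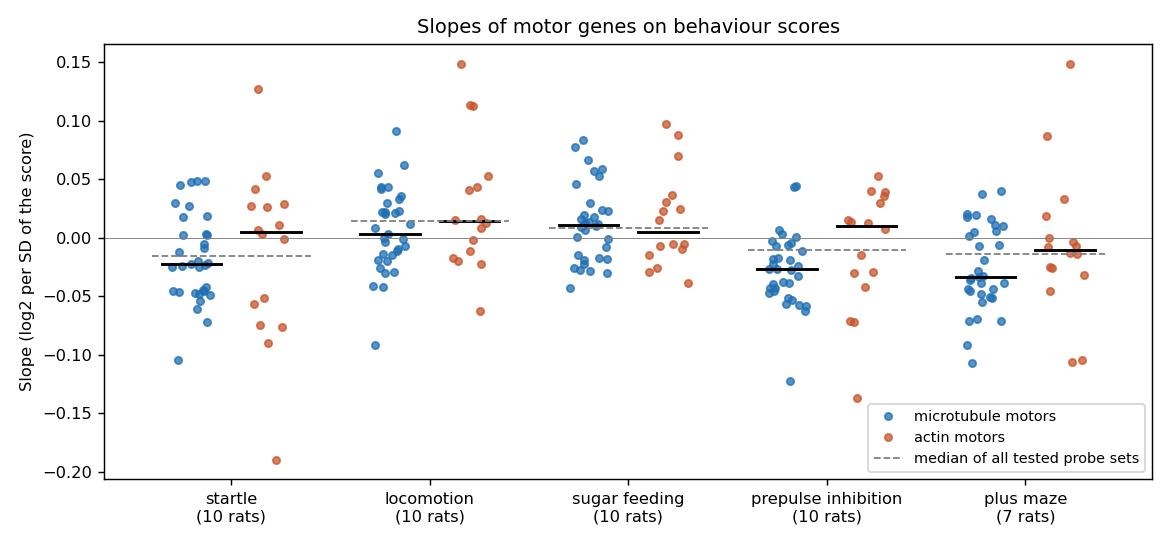
Slopes of the 33 microtubule (blue, left) and 16 actin (orange, right) motor genes above the filter on each behaviour score, in log2 per SD of the score; points are genes, black bars class medians and dashed lines the median of all tested probe sets. Most slopes lie within 0.1 of 0, and for prepulse inhibition the microtubule median is -0.026 and the actin median 0.010.

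Motor genes were then set against 6 marker scores, each the mean of the centred log2 values of the markers of a cell type that were above the filter. The scores come from the same arrays as the motor values, so a shift of a whole array can enter both sides, and in bulk tissue fewer cells of a type and less RNA per cell cannot be told apart. The striatal score, of 8 of 12 fixed markers, separated 3 rats: it was 1.54, 0.97 and 0.53 in rats 7, 4 and 10 and between -0.67 and 0.09 in the others. The myelin score, of 14 of 16 fixed markers, ran from -0.58 in rat 3 to 0.46 in rat 7. The microglial score, of 6 of 12, ran from -0.34 in rat 3 to 0.23 in rat 6, and the markers Aif1, Cx3cr1, Itgam, Tyrobp, Cd68 and Ptprc were below the filter. The myelin and microglial scores rose and fell together (r = 0.91, permutation p = 0.00034; Spearman's rank correlation = 0.88, permutation p = 0.0015; n = 10; adjusted over 15 pairs of scores, p = 0.0051 and 0.0225), with r = 0.81 without rats 3 and 7. The microglial and astrocyte scores had r = 0.82 (permutation p = 0.00364; Spearman's rank correlation = 0.82, permutation p = 0.00595; adjusted p = 0.0207 and 0.0298; r = 0.86 without rats 2 and 3). The myelin and striatal scores had r = 0.80 (permutation p = 0.00414; Spearman's rank correlation = 0.84, permutation p = 0.00346; adjusted p = 0.0207 and 0.0260; r = 0.78 without rats 3 and 7).

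Only 2 motor genes passed the threshold with any of the 6 scores, Myo1d and Myo6, both with the myelin and the microglial score, which makes 0 of 33 microtubule and 2 of 16 actin motors in each case. Of all probe sets, 1.97% were called with the myelin score and 0.664% with the microglial score. The other scores had 0 motor genes called, beside 1.43% of all probe sets for the striatal, 0.0838% for the meningeal, 0% for the mural and 0.181% for the astrocyte score.

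Myo1d rose with the myelin score by 0.20 ± 0.04 log2 per SD (limma adjusted p = 0.0340) and with the microglial score by 0.21 ± 0.03 (limma adjusted p = 0.0274). It was 5.20, 5.04 and 4.97 in rats 6, 7 and 4, whose microglial scores were the highest, and 4.39 in rat 3, whose score was the lowest. Myo6 rose with the myelin score by 0.22 ± 0.05 (limma adjusted p = 0.0499) and with the microglial score by 0.24 ± 0.04 (limma adjusted p = 0.0295). The adjustment included the score's own probe sets, which vary with it by construction, and the value of 0.0499 lies at the threshold. Whether Myo6 would pass with the myelin score in an adjustment without them was not tested. Rats 7, 10 and 6 had 7.36, 7.26 and 7.25 for Myo6 and rats 3 and 2 had 6.63 and 6.62. Slopes on the astrocyte score were 0.18 ± 0.05 for Myo1d and 0.19 ± 0.06 for Myo6 (limma adjusted p = 0.137 and 0.176), and on the striatal score 0.12 ± 0.06 and 0.16 ± 0.07, none past the threshold.

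The slopes kept their sign and the calls often did not hold. With the myelin score, Myo1d stayed past the threshold without rat 1, 5 or 6 and not without any of the other 7 rats, and Myo6 only without rat 5, with adjusted p from 0.0308 to 0.146 and from 0.0287 to 0.165. With the microglial score, Myo1d stayed past it in 5 of 10 such fits and Myo6 in 4 of 10, with adjusted p of up to 0.308 and 0.208, and both were lost without rat 3, 4, 6, 7 or 8. Calls over the whole array moved as well: with the microglial score 0 probe sets were called without rat 3 and 4 without rat 4, beside 103 with all rats. With the striatal score as a covariate the slopes were 0.30 for Myo1d and 0.26 for Myo6 on the myelin score (limma adjusted p = 0.160 and 0.475), and 0.23 for each on the microglial score (limma adjusted p = 0.111 and 0.141), while 3 and 0 of all probe sets were called. Without rats 4, 7 and 10 the slopes were 0.22 for Myo1d and 0.17 for Myo6 on the myelin score (limma adjusted p = 0.401 and 0.719) and 0.23 and 0.21 on the microglial score (limma adjusted p = 0.282 for both), and 0 of all probe sets were called with either score. A second Myo6 probe set had slopes of 0.14 ± 0.09 with the myelin score and 0.15 ± 0.09 with the microglial score, neither past the threshold, and the second Myo1d probe set was below the filter.

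With all 10 rats no microtubule motor passed at the filter used. Kif5b and Kif3a came nearest and are named after their values were seen. Kif5b had slopes of 0.17 ± 0.03 with the microglial score (limma adjusted p = 0.0523), 0.17 ± 0.04 with the astrocyte score (limma adjusted p = 0.0795) and 0.14 ± 0.05 with the myelin score (limma adjusted p = 0.156). Its lowest value, 11.11, was in rat 3, and without rat 3 the slope with the microglial score was 0.12 (limma adjusted p = 0.424). Kif5b passed with the microglial score after quantile normalisation, under the upper 25% filter, with a trended robust variance, with the spike-in covariate and without rat 1 or rat 2 (limma adjusted p = 0.0277 to 0.0463), and with the astrocyte score under the upper 25% filter (limma adjusted p = 0.0432). A second Kif5b probe set had slopes of -0.01 with the myelin score and 0.00 with the microglial score. Kif3a had a slope of -0.09 ± 0.02 with the myelin score (limma adjusted p = 0.0695), and its second probe set one of -0.10 ± 0.06. It passed without the filter (limma adjusted p = 0.0373) and with an ordinary linear model (adjusted p = 0.0486). Kif3a was 10.31, 10.31 and 10.29 in rats 3, 2 and 1 and 10.03 in rat 7.

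**Figure D4:**
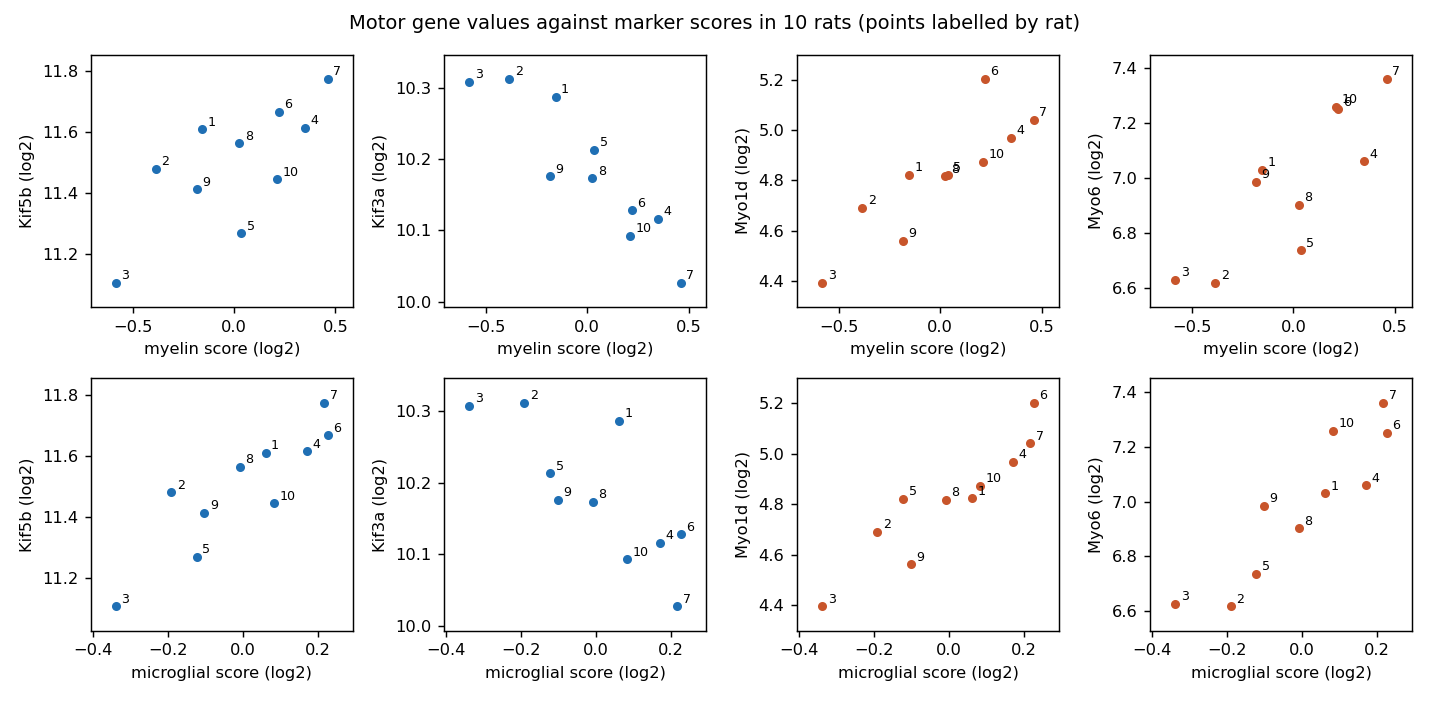
Log2 values of Kif5b and Kif3a (blue, microtubule motors) and Myo1d and Myo6 (orange, actin motors) against the myelin score (top) and the microglial score (bottom); each point is 1 of 10 rats, labelled with its number. Rat 3 has the lowest marker scores and the lowest Kif5b and Myo1d values, and Kif3a runs the other way.

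Myh11, a smooth muscle gene, had a slope of -0.06 ± 0.14 with the mural score of vessel wall markers (limma adjusted p = 0.956), and one of 0.012 with arrays centred on their medians. That score held 6 of 12 fixed markers and followed them loosely: 2 of the 6 had an unadjusted p under 0.05 with it and 0 were called. Slopes of Myh11 were 0.09 ± 0.14 with the meningeal score, -0.36 ± 0.08 with the astrocyte score (limma adjusted p = 0.0970) and -0.33 ± 0.10 with the microglial score (limma adjusted p = 0.136). Rat 3, the highest for Myh11, weighed on these: without it the slopes were -0.094 with the meningeal score, -0.24 with the astrocyte score and -0.16 with the microglial score. Without rat 2 the slope with the microglial score was -0.41 and passed the threshold (limma adjusted p = 0.0484). These Myh11 values too were singled out after they were seen.

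Counts of slopes at an unadjusted p under 0.05 were, for microtubule and actin motors, 4 and 4 with the myelin score beside 16.0% of all probe sets, 3 and 3 with the striatal score beside 14.5%, and 2 and 4 with the microglial score beside 15.7%. They were 4 and 4 with the astrocyte score beside 15.2%, 1 and 2 with the mural score beside 9.16%, and 2 and 2 with the meningeal score beside 3.30%. On the myelin score, 11 of 33 microtubule and 11 of 16 actin motors had positive slopes beside 59.7% of all probe sets, with medians of -0.014, 0.013 and 0.013. On the microglial score the counts were 16 of 33 and 9 of 16 beside 65.1%, and after quantile normalisation 11 of 33 and 10 of 16 beside 57.4%. On the mural score they were 23 of 33 and 5 of 16 beside 56.2%, and after quantile normalisation 14 and 5 beside 43.1%. On the astrocyte score they were 21 and 10 beside 71.5%, and after quantile normalisation 12 and 10 beside 54.4%.

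Genes that motors work with were read from the same fits. Lists of 31 cargo adaptors and regulators, 13 tubulins, 24 microtubule-associated proteins and 31 actin, tropomyosin and myosin light chain genes had 24, 10, 23 and 17 members above the filter. None was called with any behaviour, as for all probe sets (0%). Clip1, which tracks growing microtubule ends, fell by 0.21 ± 0.04 log2 per SD of the myelin score (limma adjusted p = 0.0245), 1 of 23 beside 1.97% of all probe sets, and Tubb2b, a beta tubulin, rose by 0.20 ± 0.04 with the microglial score (limma adjusted p = 0.0394), 1 of 10 beside 0.664%. These were the only calls of the 4 lists with the 6 marker scores. Neither call held without rats 4, 7 and 10, and that of Tubb2b did not hold without rat 3. On the myelin score 9 of 10 tubulins, 16 of 24 adaptors, 12 of 23 microtubule-associated proteins and 11 of 17 actin genes had positive slopes, with medians of 0.022, 0.014, 0.0016 and 0.013 beside 0.013 for all probe sets.

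Where a motor gene had further probe sets above the filter, they did not always follow the chosen one. Over 23 such probe sets of 15 genes, the slope had the sign of the chosen probe set in 18 for startle, 12 for locomotion, 7 for sugar feeding, 13 for prepulse inhibition and 16 for the plus maze score. For the marker scores the counts were 15 for myelin, 16 for striatal, 15 for meningeal, 17 for mural, 18 for microglial and 16 for astrocyte. All 5 Myh1 probe sets had positive slopes with both the myelin and the microglial score.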

How the data were processed

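Prefrontal cortex RNA of 10 male Lewis rats was hybridised to 1 Affymetrix rat array each. The authors deposited log2 values per probe set, made with GCRMA under R 2.6.2, per the submitters' processing notes. That method subtracts a background estimated from probe sequence, applies quantile normalisation and combines the probes of a set; the sources used here do not give its version. Of 31099 probe sets, 57 were array controls and were left out. The 50% with the highest mean, 15521, were tested.

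Log2 values were fitted on each score, scaled to an SD of 1, by lmFit and eBayes of limma 3.58.1, run under R 4.3.3 (two-sided tests, Benjamini-Hochberg over all tested probe sets, threshold 0.05). For marker scores the probe sets of the score's own genes were left out of the counts but not out of the adjustment. The same model was also run for the behaviour scores on simulated data. Noise there was independent for each probe set, which leaves out shifts shared by a whole array. No result given here rests on that run. Names came from the platform annotation. The gene numbers of 80 of the 82 motor genes matched RefSeq on GRCr8 and 0 symbols changed. In all, 10 probe sets with several symbols, of which a motor gene was 1, were not used.

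Named genes were a fixed panel, the 3 motor genes of smallest p in each direction for each behaviour among those whose sign held whichever rat was omitted, every motor gene called with a marker score, and the 5 microtubule and 5 actin motors of largest SD. The panel genes Kif17, Kif21b and Dynll1 were not analysed here. The members and lists were chosen with earlier results of these data known. Each label names a separate animal. Alternatives covered the filter, normalisation, ranks of the score, the choice of probe set, the variance model, covariates and the omission of rats.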

Additional observations from a re-analysis of the deposited data

Results flagged for a closer look

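Values of all 82 motor genes and the marker scores were screened for a single rat standing apart from the other 9, by the gap to its nearest neighbour as a share of the whole range (Dixon's criterion at 95%). Chance gives such a gap in about 1 of 20 genes, and it was found for 6 of the 82 motor genes.

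Among the microtubule motors, the dynein heavy chain Dync1h1 was 11.04 in rat 2 against 10.73 to 10.88 in the others (gap 0.497 of the range), and the kinesin Kif21a was 10.76 in rat 2 against 10.41 to 10.60 (0.468). Kif13a, below the filter, was 2.69 in rat 3 against 3.22 to 3.56 (0.606).

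Among the actin motors, the nonmuscle heavy chain Myh9 was 8.92 in rat 1 against 8.63 to 8.76 (0.565). The class I myosin Myo1e was 4.49 in rat 3 against 4.59 to 4.70 (0.492). Myh7, below the filter, was 3.09 in rat 5 against 2.90 to 2.99 (0.512).

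The skeletal muscle marker score was 0.27 in rat 6 against -0.14 to 0.07 (0.482), and the blood marker score was -0.28 in rat 5 against -0.05 to 0.14 (0.549).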

How the results depend on the processing

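No paired analysis was possible because every animal contributed 1 array and was measured once. All 5 behaviours kept 0 motor genes called under every alternative that could be run. With the myelin score the count of 2 was 1, Myo1d, after quantile normalisation, with the mean over all kept probe sets of a gene, with a trended robust variance and with the spike-in level or the 3' minus 5' difference as a covariate. It was 1, Kif3a with a negative slope, without the filter and with an ordinary linear model. It was 0 with the striatal score as a covariate and without rats 4, 7 and 10, the 3 with the highest striatal scores. With the microglial score the count of 2 was 1, Myo1d, with the mean over probe sets, and 0 with the ordinary linear model, the striatal covariate or without those 3 rats. It was 3 after quantile normalisation, with a trended robust variance and with the spike-in covariate, where Kif5b was added. Myo1d and Myo6 lie below the upper 25% filter and were not tested under it: there the counts were 0 for myelin, 1 for microglial and 1 for astrocyte, the last 2 being Kif5b. Leaving out 1 rat gave 0 to 2 calls for myelin and 0 to 4 for microglial.

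The cause of the shifts that follow was not tested. Median slopes of microtubule motors on startle were 0.0028 without the filter, 0.011 after quantile normalisation and 0.0016 with arrays centred on medians. Those on locomotion were -0.016, -0.018 and -0.031 under quantile normalisation, centring and the spike-in covariate. With all 4 scores in 1 model the median on sugar feeding was -0.017. On prepulse inhibition it was -0.0076 without the filter and -0.0046 after quantile normalisation, and on the plus maze score 0.0030 and -0.0032. Median slopes of actin motors on startle were -0.054 under the upper 25% filter and 0.029 with centring. On locomotion they were 0.042 under that filter, -0.0067 with centring, -0.0060 with the spike-in covariate, 0.048 with 4 scores in 1 model and -0.0033 without the 3 rats. With 4 scores in 1 model the actin median on sugar feeding was -0.042. On prepulse inhibition it was -0.030 under the upper 25% filter, -0.021 with the striatal covariate and -0.024 with 4 scores, and on the plus maze score 0.0058 without the filter and 0.0092 with centring.

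Leaving out 1 rat gave median slopes of microtubule motors of -0.025 to -0.0040 on startle, -0.0027 to 0.013 on locomotion, -0.0086 to 0.025 on sugar feeding, -0.035 to -0.013 on prepulse inhibition and -0.041 to -0.015 on the plus maze score. For actin motors they were -0.0081 to 0.011, 0.0062 to 0.020, -0.010 to 0.031, -0.012 to 0.011 and -0.015 to 0.0051 in the same order. The median SD of motor genes was 0.0926 without the filter and 0.124 with the mean over probe sets. That of actin motors was 0.0637 without the filter, 0.116 under the upper 25% filter, 0.126 after quantile normalisation, 0.128 with centring and 0.126 without the 3 rats. Leaving out 1 rat gave 0.103 to 0.111 for all motors, 0.0959 to 0.110 for microtubule and 0.134 to 0.146 for actin motors.

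Of the slopes of named genes, those on prepulse inhibition turned to -0.034 for Dynlt5 and -0.069 for Myh8 with 4 scores in 1 model and to -0.0055 for Dynlrb2 with the striatal covariate. The slope of Myo6 on the striatal score was -0.0048 without the 3 rats. That of Myh11 on the mural score was 0.012 with centring, 0.053 with the 3' minus 5' covariate and between -0.16 (without rat 7) and 0.027 (without rat 6) with 1 rat left out, and on the meningeal score between -0.094 (without rat 3) and 0.19 (without rat 8).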
